A study of Homo sapiens with 17 samples.

Results

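Karpas-422 and WSU-DLCL2, 2 lines of B cell lymphoma, were compared by their gene expression while both were exposed to the same drug, A-485. Of the 15 RNA-seq libraries of the series, 6 entered the comparison: 3 of Karpas-422 with A-485 and 3 of WSU-DLCL2 with A-485, each labelled as treated for 48 h. The libraries were chosen by their cell line and treatment labels alone, and no measured value was used. The other 9 libraries, 3 of untreated Karpas-422, 3 of untreated WSU-DLCL2 and 3 WSU-DLCL2 clones labelled as BCL11A knockouts, served only to show the level of a gene in other libraries of the same line. The title of untreated WSU-DLCL2 replicate 3 names no drug while its treatment label names A-485 for 48 h; it was grouped by its title, and values of untreated WSU-DLCL2 are given per library or with and without it. The labels give no dose and do not say whether replicates came from separate cultures, so a p-value here speaks only to how far the libraries of a line lie apart, and that spread may be technical. Each line is a single established line, and the differences below are between these 2 lines, not between kinds of lymphoma. All 6 libraries carried the drug, so a constant difference between the lines and a different response of each line to A-485 cannot be told apart within them.

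Both lines grew from B cell lymphomas and are used as models of germinal centre B cells, the cells that divide and diversify their antibody genes in lymph nodes. A-485 blocks the catalytic site of the histone acetyltransferases encoded by EP300 and CREBBP, which mark active enhancers. Lines from different tumours differ in gene copy number, mutations and silenced genes, and each keeps part of the programme of its cell of origin.

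The Karpas-422 libraries held 7792197 to 8897051 counts in genes and the WSU-DLCL2 libraries 6689320 to 7086106. Unaligned reads made up 2.67% ± 0.182 (SD, n = 3) of all reads in Karpas-422 and 14.3% ± 0.279 in WSU-DLCL2. Reads without a unique alignment made up 48.9% ± 0.0704 and 43.5% ± 0.462, and reads assigned to genes 39.0% ± 0.179 and 30.3% ± 0.420. The libraries of the lines did not overlap in any of these shares (two-sided exact permutation test, p = 0.1, the smallest that 3 against 3 libraries allow). The role of these shares in the gene differences was not tested. Across the 12472 genes tested, Spearman's rho was 0.992 to 0.993 between Karpas-422 libraries, 0.983 to 0.989 between WSU-DLCL2 libraries and 0.786 to 0.789 between the lines.

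The lines differed at most genes. The quasi-likelihood test of edgeR, adjusted by Benjamini-Hochberg, called 9035 of 12472 genes (72.4%) at an adjusted p under 0.05, with 4754 (38.1%) higher in Karpas-422 and 4281 (34.3%) higher in WSU-DLCL2. Of these, 2499 genes (20.0%) were called and at least 2-fold higher in Karpas-422, and 2088 (16.7%) were called and at least 2-fold higher in WSU-DLCL2. The 3 libraries of 1 line lay wholly above those of the other at 75.1% of genes. The share was 74.1% by an unadjusted p under 0.05, and 72.6% with library sizes alone, 64.8% with DESeq2 and 72.1% with limma-voom. Log2 fold changes are given as Karpas-422 minus WSU-DLCL2, so a positive value is higher in Karpas-422, and their median over all genes was 0.07. These shares are the background for every count below: a list in which about 7 in 10 members were called is no different from the genes at large.

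**Figure D1:**
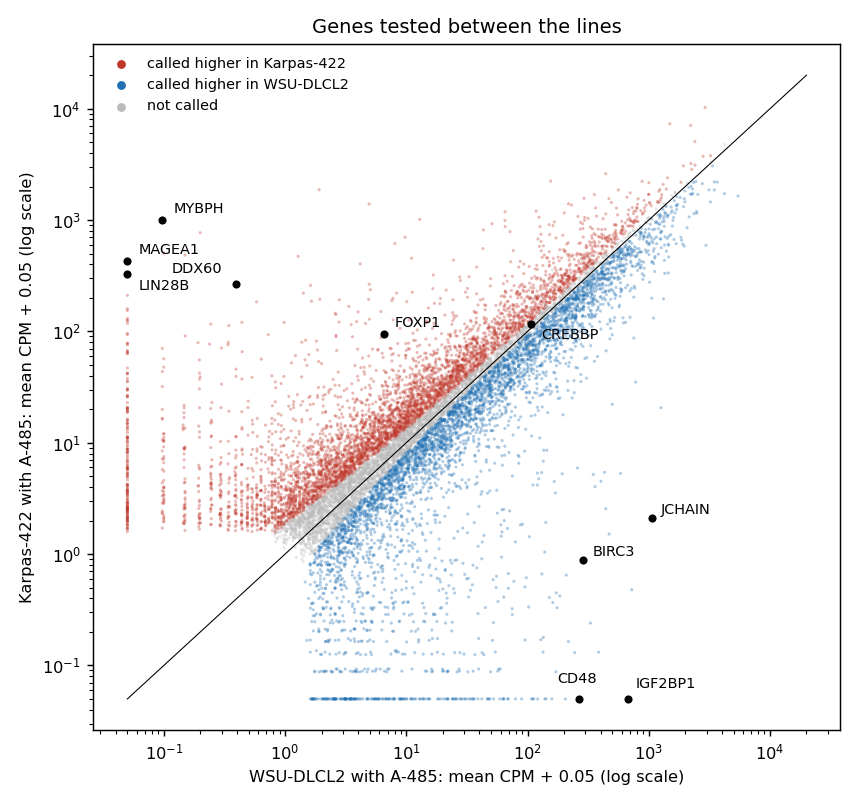
Mean level in CPM of each tested gene in the 3 WSU-DLCL2 libraries (x axis) and the 3 Karpas-422 libraries (y axis) with A-485, both on a log scale after adding 0.05; colours mark edgeR calls and black points mark named genes. CREBBP lies near the line of equal level, FOXP1 and DDX60 lie far above it, and JCHAIN, BIRC3, CD48 and IGF2BP1 far below.

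The clearest differences were genes read from 1 line only. A gene was taken as near silent in a line when its 3 libraries held at most 3 counts in all while the other line had a mean of at least 10 CPM (a gene's counts per 1000000 counts in genes of its library). By this rule 101 genes were near silent in WSU-DLCL2 and 115 in Karpas-422, of which 67 and 94 were protein-coding. No count at all was found for 63 and 65 of them.

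The highest of the genes near silent in WSU-DLCL2 was MYBPH, which encodes a myosin-binding protein of muscle. It stood at 1123, 926 and 949 CPM in Karpas-422 against 1 count in all of WSU-DLCL2. CLMN was at 764, 779 and 762 CPM, with 3 counts in WSU-DLCL2. MAGEA1, a cancer-testis antigen gene on chromosome X that is normally read in the male germ line, was at 437, 427 and 421 CPM in Karpas-422 and had no count in WSU-DLCL2, so it was at least 2925-fold higher (against a floor of 3 counts over the 3 libraries). LIN28B, an RNA-binding repressor of let-7 microRNA maturation, was at 307, 330 and 345 CPM and at least 2240-fold higher. The rule that chose these genes required a wide gap between the lines in these same libraries, so the gap is no separate support.

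FGL2, a fibrinogen-like secreted protein gene, was at 458, 488 and 507 CPM against 2 counts. DSG1, a desmosomal cadherin of skin, was at 123, 130 and 139 CPM against none, and EPHB1, an ephrin receptor gene, at 160, 158 and 160 CPM against none. CNTLN, ABCC5, GRAMD1B and KHDRBS2 likewise had no count in WSU-DLCL2 and means of 210, 154, 126 and 125 CPM in Karpas-422. CD3G and CD3D, subunits of the T cell receptor complex, were at 489 to 525 and 36.8 to 39.0 CPM in Karpas-422, while WSU-DLCL2 had 1 count of CD3G and none of CD3D. CD247, a further subunit of that complex, was at 25.7, 20.9 and 22.2 CPM against 0.299, 0 and 0.298 (log2 fold change 6.69, SE 0.31, adjusted p = 1.56e-12). Each SE, here and below, was worked back from the F statistic of the edgeR test. It is too small where a line had few counts, as here.

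Other T and NK cell markers were mostly not read. Of 19 markers matched, 3 were tested, all higher in Karpas-422, and 11 had no count in the Karpas-422 libraries, CD2, CD7, CD8A, ZAP70 and GZMB among them. CD3E was at 0.120 CPM. The summed level of the list was 550 to 589 CPM in Karpas-422 with A-485, 0.747 to 1.64 in WSU-DLCL2 with A-485 and 638 to 683 in untreated Karpas-422. Variable genes of the T cell receptor gamma locus, outside the list and picked after their values were seen, were also read in Karpas-422: TRGV3 was at 31.8, 25.4 and 32.0 CPM and TRGV5 at 23.7, 22.3 and 22.7 CPM, against no count in WSU-DLCL2. All 5 tested T cell receptor variable genes, TRGV1 to TRGV5, were higher in Karpas-422. They are neighbours in 1 run on chromosome 7, so they stand for 1 locus. TRDC, the delta constant gene, went the other way, at 52.6, 45.3 and 50.5 CPM in WSU-DLCL2 against 1 count. The source of these transcripts was not tested. In RNA from whole cultures, fewer cells of a type and less RNA per cell cannot be told apart.

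In the other direction, IGF2BP1, an RNA-binding protein gene of fetal tissues, led the genes near silent in Karpas-422. It stood at 653, 706 and 680 CPM in WSU-DLCL2 and had no count in Karpas-422, a difference of at least 5731-fold. CD48, a surface ligand that B cells present to NK and T cells, was at 268, 262 and 273 CPM against none and at least 2253-fold lower in Karpas-422. SPN, which encodes the leukocyte sialoglycoprotein CD43, was at 232, 271 and 230 CPM against 2 counts. SLC1A1, a glutamate transporter gene, was at 402, 362 and 392 CPM against 2 counts, and GPD2, a mitochondrial glycerol phosphate dehydrogenase gene, was at 228, 205 and 218 CPM against 3 counts. The 3 libraries of each line were close together at all of these.

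NUDT11, SVIP, IPCEF1, YBX3, CCDC50, TBC1D12, RAB4A and KCTD3 had no count in the 3 Karpas-422 libraries, against means of 89.3 CPM for KCTD3 to 205 for NUDT11 in WSU-DLCL2. RAB4A encodes a GTPase of early endosome recycling, and YBX3 a cold-shock domain protein. SCML2, a Polycomb gene, was at 64.4, 65.6 and 61.3 CPM in WSU-DLCL2, and HOXA10, a homeobox gene of blood precursors, at 66.7, 53.5 and 57.0 CPM, both against no count. LMO2, a transcription cofactor that marks germinal centre B cells and was picked here after its values were seen, was at 26.9, 38.5 and 36.5 CPM against none.

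In the other libraries of each line, which were not used to choose these genes, most stayed on the same side of a low threshold, but levels often differed. Of the 115 genes near silent in Karpas-422, 103 also had at most 3 counts in the 3 untreated Karpas-422 libraries, against 464 of all 12472 genes (3.72%), and 112 had at least 1 CPM in untreated WSU-DLCL2. Of the 101 near silent in WSU-DLCL2, 92 were under 1 CPM in untreated WSU-DLCL2, against 1724 of all genes (13.8%), and 100 had at least 1 CPM in untreated Karpas-422. Most genes pass the bar of 1 CPM: all but 13.8% of those tested had at least 1 CPM in untreated WSU-DLCL2. The share of all genes at that level in untreated Karpas-422 was not computed. By the rule of at most 3 counts, 55 of the 101 passed in the deeper untreated WSU-DLCL2 libraries. Without untreated WSU-DLCL2 replicate 3 the 112 and 92 became 111 and 93, against 1862 of all genes (14.9%) under 1 CPM. The level in the line that reads the gene was within 2-fold of the untreated level for 54 of the 101 genes in Karpas-422 and 33 of the 115 in WSU-DLCL2, and untreated levels were lower by more for 34 and 57. IGF2BP1 had no count in untreated Karpas-422 and 149.8, 142 and 130.4 CPM in untreated WSU-DLCL2, and MAGEA1 had 619 CPM and none. FGL2 was at 113 to 115 CPM in untreated Karpas-422, and LMO2 at 224 to 271 CPM in untreated WSU-DLCL2. NFATC2, a T and B cell transcription factor gene, was an exception: it was at 30.0, 30.5 and 30.7 CPM in Karpas-422 and 0, 0.141 and 0.298 CPM in WSU-DLCL2 with A-485, but at 109, 103 and 80.4 CPM in untreated WSU-DLCL2. The untreated WSU-DLCL2 libraries were deeper and of another kind (21233752 to 37286727 counts, with no read listed as unaligned), so a change with treatment and a difference in library kind cannot be told apart there.

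**Figure D2:**
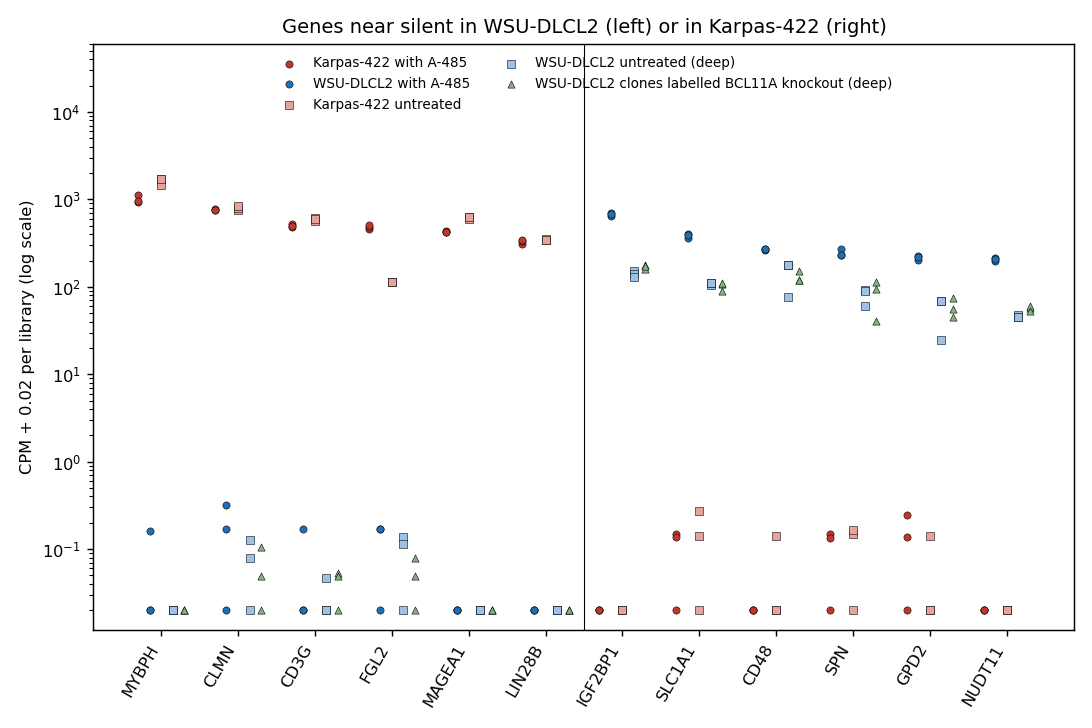
CPM per library (log scale, after adding 0.02; each point is 1 library, 3 per group) of the 6 protein-coding genes with the highest level among those near silent in WSU-DLCL2 (left) and in Karpas-422 (right). MYBPH was at 1625 CPM in untreated Karpas-422 and IGF2BP1 at 130.4 to 149.8 CPM in untreated WSU-DLCL2, each far above the other line.

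Promoters are shown for the protein-coding genes with the highest level and no count in the other line, among those with an entry in the RefSeq promoter table, to show that genes read from 1 line had promoters both dense and sparse in CG pairs. Each is the 250 bases before the start of the gene on its own strand, from GRCh38.p14, in lower case with every CG pair in capitals. CG pairs are the sites of DNA methylation, which was not measured here. LIN28B (chr6:104940715-104940964, plus strand) held 33 CG pairs and CNTLN (chr9:17134790-17135039, plus strand) 29, both read in Karpas-422. CD48 (chr1:160711823-160712072, minus strand) held 4, and NUDT11 (chrX:51496593-51496842, minus strand) 35, both read in WSU-DLCL2.
LIN28B: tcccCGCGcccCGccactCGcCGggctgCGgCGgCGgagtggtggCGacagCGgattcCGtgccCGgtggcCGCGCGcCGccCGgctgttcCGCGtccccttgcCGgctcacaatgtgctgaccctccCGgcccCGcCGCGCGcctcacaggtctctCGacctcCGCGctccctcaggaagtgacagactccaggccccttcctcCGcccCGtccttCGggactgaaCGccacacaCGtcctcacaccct
CNTLN: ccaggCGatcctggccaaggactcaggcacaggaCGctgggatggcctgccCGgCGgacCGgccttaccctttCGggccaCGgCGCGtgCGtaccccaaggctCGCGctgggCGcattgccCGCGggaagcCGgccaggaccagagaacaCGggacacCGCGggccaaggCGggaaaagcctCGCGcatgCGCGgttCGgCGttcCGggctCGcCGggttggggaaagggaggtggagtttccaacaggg
CD48: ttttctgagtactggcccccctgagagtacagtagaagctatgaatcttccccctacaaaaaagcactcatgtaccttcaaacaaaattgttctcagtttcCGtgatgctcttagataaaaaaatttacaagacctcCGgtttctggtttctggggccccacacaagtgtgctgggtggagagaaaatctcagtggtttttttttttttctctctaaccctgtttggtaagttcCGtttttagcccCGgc
NUDT11: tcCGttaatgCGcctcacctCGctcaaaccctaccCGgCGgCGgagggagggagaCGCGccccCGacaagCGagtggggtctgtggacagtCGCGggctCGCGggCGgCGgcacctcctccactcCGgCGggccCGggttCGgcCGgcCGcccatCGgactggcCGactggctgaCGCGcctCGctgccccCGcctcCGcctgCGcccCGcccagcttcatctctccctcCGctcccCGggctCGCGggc

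A promoter was counted as CpG-rich when CG pairs were at least 0.6 of the number expected from its bases and its GC content was at least 50%. Of the 67 protein-coding genes near silent in WSU-DLCL2, 49 had an entry and 22 of these (44.9%) were CpG-rich. For the genes near silent in Karpas-422, 72 of 94 had an entry and 53 (73.6%) were CpG-rich. Of all tested protein-coding genes, 7998 of 9652 had an entry and 79.2% were CpG-rich. The median number of CG pairs was 13, 23.5 and 21 in these sets. These are descriptions without a test.

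Interferon-stimulated genes had the highest median of the 29 lists with at least 10 tested members. They encode the antiviral proteins that cells make when interferon receptors signal through the kinases JAK1 and TYK2 to transcription factors that include STAT2 and IRF9. Of 40 members, 37 were tested; 35 were higher in Karpas-422, 1 was lower and 1 was not called, and their median log2 fold change was 4.79. The median did not change when the 4 members with no count in 1 line were set to their bound.

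SAMD9, an antiviral restriction factor gene, was at 946, 1019 and 1076 CPM in Karpas-422 and 12.4, 14.3 and 11.9 CPM in WSU-DLCL2 (log2 fold change 6.22, SE 0.08, adjusted p = 4.69e-20). DDX60, a helicase gene, was at 255, 273 and 276 CPM against 0.598, 0.141 and 0.298 CPM (9.47, SE 0.15). With so few WSU-DLCL2 counts, the SE of DDX60 is too small. IFIT2, which encodes a binder of foreign RNA, was at 203, 195 and 178 CPM against 3.14, 1.98 and 3.13 CPM (6.05, SE 0.12). The 2 lines did not overlap at any of them, but they were picked from these same values, so the gap is no separate support. The RNA sensors OAS1 and OAS3, which switch on RNase L, differed by log2 fold changes of 4.61 (SE 0.09) and 3.62 (SE 0.07).

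Of the signalling genes, STAT2 was higher in Karpas-422 by 1.98 (SE 0.06) and IRF9 by 3.49 (SE 0.11). The kinase gene JAK1 was higher in WSU-DLCL2 (-0.75, SE 0.05), and TYK2 was not called (0.03, SE 0.16). These and the next genes were picked after their values were seen. IFIH1, the sensor of long double-stranded RNA, was the member that went the other way: 7.06, 6.52 and 5.70 CPM in Karpas-422 and 20.0, 15.5 and 18.2 CPM in WSU-DLCL2 (-1.55, SE 0.15). The summed level of the 40 genes was 6680 ± 118 CPM (SD, n = 3) in Karpas-422 with A-485, 2252 ± 95.1 in untreated Karpas-422, 1127 ± 28.0 in WSU-DLCL2 with A-485 and 521 ± 5.38 in untreated WSU-DLCL2 (519 without replicate 3). Untreated Karpas-422 thus also lay above WSU-DLCL2 with A-485, by a smaller margin.

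Genes for presenting antigen on MHC class I, several of which interferon also induces, were mostly higher in Karpas-422. Of 17 tested, 14 were higher there, 1 was higher in WSU-DLCL2 and 2 were not called, with a median of 1.43. The peptide transporter gene TAP1 was at 84.3, 72.9 and 75.6 CPM in Karpas-422 and 7.92, 12.0 and 9.68 CPM in WSU-DLCL2 (log2 fold change 2.89, SE 0.12). NLRC5, the transactivator of class I genes, differed by 3.93 (SE 0.25), the immunoproteasome gene PSMB8 by 2.75 (SE 0.17) and HLA-E by 1.71 (SE 0.09). ERAP1, which trims peptides, was the one higher in WSU-DLCL2 (-0.74, SE 0.06). HLA genes share sequence and vary between people, so reads may be split between them or lost in ways that differ by line.

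MHC class II genes, which B cells use to present antigen to helper T cells, showed no common direction. Of 15 tested, 7 were higher in Karpas-422, 6 in WSU-DLCL2 and 2 were not called, with a median of 0.25 that was -0.22 among members with a mean of at least 10 CPM. HLA-DRB5 differed most, at 613, 615 and 618 CPM in Karpas-422 and 5.53, 10.6 and 7.89 CPM in WSU-DLCL2 (6.18, SE 0.11), and it is carried only by some HLA haplotypes. CD74, the invariant chain, was at 144, 161 and 155 CPM against 313, 360 and 332 CPM (-1.20, SE 0.06). CIITA, the master regulator of the group, was at 47.5, 48.9 and 49.6 CPM against 37.7, 39.9 and 38.9 CPM (0.25, SE 0.08, adjusted p = 0.00887 in edgeR). That call was lost without WSU-DLCL2 replicate 2 (adjusted p = 0.0581), with DESeq2 (0.151) and with 2 other settings, so the difference in CIITA is small and depends on the fit. HLA-DPA1 and HLA-DMA, not called here, passed under some of them.

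**Figure D3:**
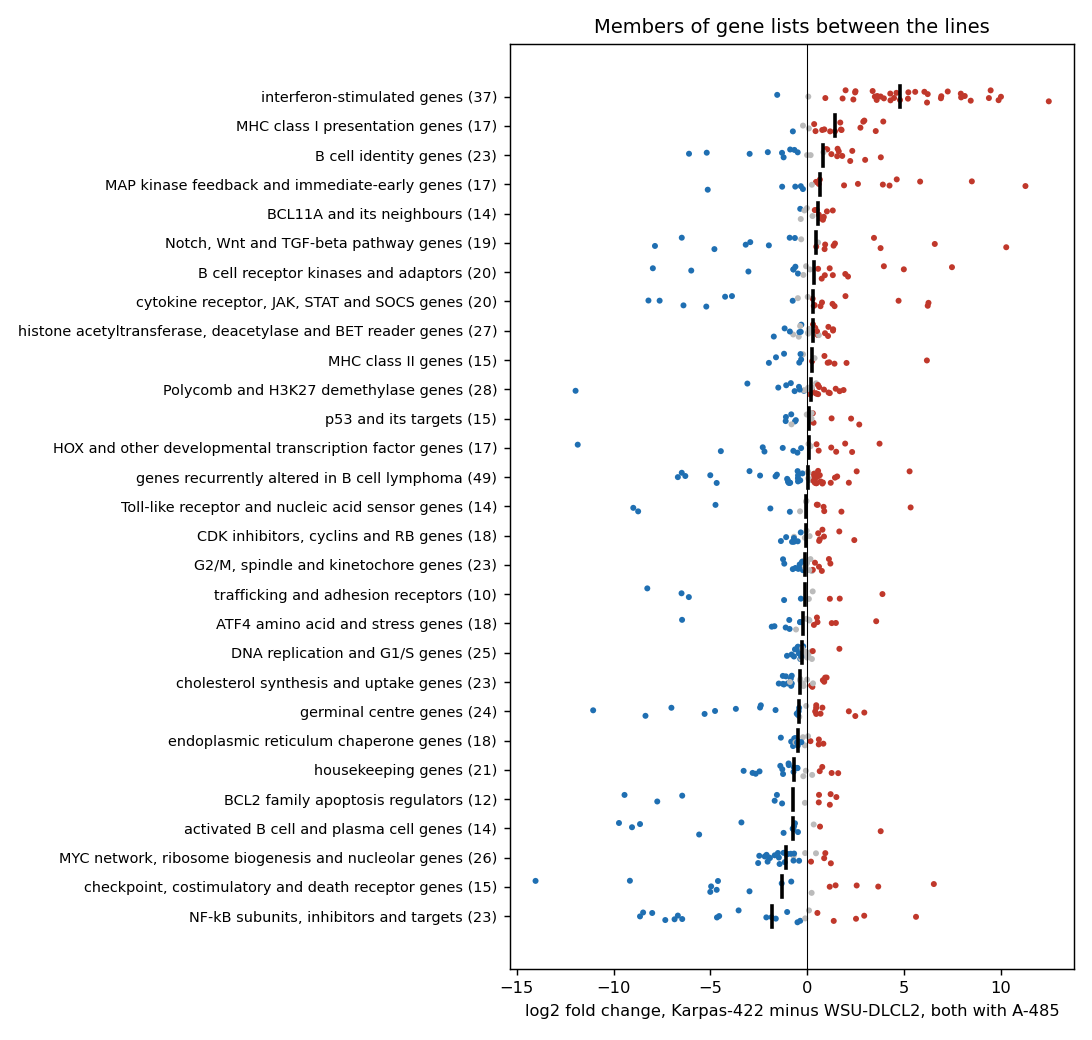
Log2 fold change of each tested member (1 point per gene, Karpas-422 minus WSU-DLCL2 with A-485) for the 29 gene lists with at least 10 tested members, whose number is in parentheses; black bars mark medians and colours the edgeR calls. The interferon list lies furthest to the right, with a median of 4.79, and the NF-kB list furthest to the left, with a median of -1.84.

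NF-kB genes leaned the other way. NF-kB factors are held in the cytoplasm by inhibitor proteins and, once released, switch on survival and inflammation genes. Of 23 genes tested, 16 were higher in WSU-DLCL2, 5 in Karpas-422 and 2 were not called, with a median of -1.84. CD83, an activation marker of B cells, was at 3.85, 6.18 and 5.70 CPM in Karpas-422 and 576, 561 and 615 CPM in WSU-DLCL2 (log2 fold change -6.86, SE 0.10, adjusted p = 2.01e-18). BIRC3, an inhibitor of cell death, was at 1.03, 1.12 and 0.349 CPM against 299.6, 264 and 298 CPM (-8.48, SE 0.15). The adhesion gene ICAM1 and TNFAIP3, the A20 inhibitor of the pathway, differed by -7.33 (SE 0.23) and -6.68 (SE 0.23).

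Some members of the same list, TNF among them, went against it. TNF was at 986, 870 and 871 CPM in Karpas-422 and 141, 154 and 157 CPM in WSU-DLCL2 (log2 fold change 2.52, SE 0.06). LTA and LTB, its neighbours on chromosome 6, were also higher in Karpas-422, by 5.62 (SE 0.28) and 1.37 (SE 0.26), and were named after their values were seen. The adaptor gene TRAF1 was higher there by 2.94 (SE 0.11). BIRC3, CD83 and TNFAIP3 were at 0.612, 5.52 and 0.433 CPM in untreated Karpas-422, near their levels with A-485.

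Genes of activated B cells and plasma cells were mostly higher in WSU-DLCL2: 11 of 14 tested, with 2 higher in Karpas-422 and a median of -0.73. JCHAIN, which joins secreted antibodies, was at 1.28, 2.25 and 2.68 CPM in Karpas-422 and 1043, 992 and 1161 CPM in WSU-DLCL2 (-9.05, SE 0.13). IRF4, a transcription factor gene of plasma cell differentiation, had 3 counts in Karpas-422 and 46.5, 54.5 and 52.9 CPM in WSU-DLCL2. MZB1, an endoplasmic reticulum chaperone of antibody assembly, differed by -5.59 (SE 0.27). FOXP1 went the other way, at 90.6, 93.5 and 101 CPM against 5.98, 6.21 and 7.30 CPM (3.79, SE 0.11). PRDM1, the plasma cell master regulator, had no count in Karpas-422 and 1 in WSU-DLCL2 and was not tested. IRF4 was at 6.29, 5.98 and 1.13 CPM in untreated WSU-DLCL2, in libraries of the other kind.

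The antibody genes themselves differed between the lines. Of 15 constant region genes, 4 were tested. IGHG4 was at 2.44, 0.899 and 1.05 CPM in Karpas-422 and 311, 630 and 471 CPM in WSU-DLCL2 (-8.42, SE 0.54). IGLC3, a lambda light chain gene, had no count in Karpas-422 and 67.9, 213 and 135 CPM in WSU-DLCL2. IGHG1 was at 440, 293 and 337 CPM against 89.1, 239 and 153 CPM and was not called (1.08, SE 0.40, adjusted p = 0.0709). IGHG3 was called higher in Karpas-422 (1.10, SE 0.25), and IGHM, IGHD and IGKC had no count in either line with A-485. The WSU-DLCL2 libraries were widely spread at these genes, replicate 2 being the highest: the IGLC3 call had an adjusted p of 0.0214, and it was lost without replicate 2 (0.0657) or 3 (0.11) of WSU-DLCL2. It was also lost with no filter on low counts (0.0535). IGHG1 passed without replicate 2 (0.0289), with the 3 untreated Karpas-422 libraries added to the fit (0.0441), with DESeq2 (0.0163) and with limma-voom (0.00141). IGHG genes are near copies of each other, so their reads may be split.

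B cell identity and germinal centre genes were mixed. Among 23 identity genes tested, 11 were higher in Karpas-422 and 9 in WSU-DLCL2 (median 0.84), and among 24 germinal centre genes 9 and 13 (median -0.43). POU2AF1, the B cell coactivator, was at 7293, 7292 and 7367 CPM in Karpas-422 and 1491, 1551 and 1435 CPM in WSU-DLCL2 (2.22, SE 0.04), and CD37, a B cell tetraspanin, at 250, 233 and 244 CPM against 16.6, 16.2 and 16.7 CPM (3.80, SE 0.07). CD38, an ectoenzyme of germinal centre and plasma cells, was near silent in Karpas-422 and at 31.1, 27.4 and 31.1 CPM in WSU-DLCL2. PAG1, a membrane adaptor that holds the kinase CSK, was at 583, 598 and 601 CPM against 3054, 2853 and 2999 CPM (-2.40, SE 0.05). GCSAM, a germinal centre signalling gene, was higher in Karpas-422 by 2.95 (SE 0.08). PAX5, the B cell commitment factor, was read in all 6 libraries at 896 to 2312 CPM, as was CD79A at 377 to 729 CPM, and CD79A was not called (0.18, SE 0.25).

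B cell receptor kinases were divided between the lines, with 10 of 20 higher in Karpas-422, 7 in WSU-DLCL2 and a median of 0.35. LYN, the first kinase of the receptor, was at 38.4, 32.0 and 35.6 CPM in Karpas-422 and 277, 278 and 271 CPM in WSU-DLCL2 (-3.04, SE 0.07). FYN, a kinase of the same family, was at 48.9, 49.5 and 50.1 CPM against 1.49, 1.55 and 1.34 CPM (4.99, SE 0.14), and RASGRP3, a Ras activator, differed by -5.99 (SE 0.25). PLCG2, the phospholipase downstream of BTK, was high in both lines and 0.75 (SE 0.04) higher in Karpas-422.

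MAP kinase feedback and immediate-early genes were more often higher in Karpas-422, 11 of 17 tested against 5 in WSU-DLCL2 (median 0.65). ETV5, a transcription factor gene induced by ERK signalling, was at 489, 470 and 457 CPM in Karpas-422 and 1.49, 0.564 and 1.64 CPM in WSU-DLCL2 (8.50, SE 0.12, adjusted p = 1.97e-19). DUSP6, an ERK phosphatase, was at 77.6, 81.3 and 80.8 CPM against 1.49, 0.988 and 1.49 CPM (5.83, SE 0.14). DUSP4, a related phosphatase, was at 44.4, 39.9 and 40.2 CPM against no count and at least 283-fold higher, and it was at 448 CPM in untreated Karpas-422. EGR1 differed by 4.25 (SE 0.10), but stood at 11.4 CPM in untreated Karpas-422 and 224 with A-485, whereas ETV5 stood at 405 and 472.

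Growth genes were mostly higher in WSU-DLCL2. Of 26 MYC network, ribosome biogenesis and nucleolar genes tested, 19 were higher in WSU-DLCL2 and 4 in Karpas-422, with a median of -1.11. ODC1, the first enzyme of polyamine synthesis, was at 58.0, 58.3 and 58.4 CPM in Karpas-422 and 305, 308 and 312 CPM in WSU-DLCL2 (-2.48, SE 0.06). The nucleolar genes NPM1, RRS1 and NCL differed by -1.96 (SE 0.05), -2.05 (SE 0.06) and -1.47 (SE 0.06). MXD1, a repressor that competes with MYC, was higher in Karpas-422 (1.22, SE 0.06). MYC itself was at 0.349 to 0.642 CPM in Karpas-422 and 0.897 to 2.23 CPM in WSU-DLCL2, too low to be tested, and was at 5.49 CPM in untreated Karpas-422 and 277, 293 and 412 CPM in the deeper untreated WSU-DLCL2 libraries. The summed level of the list was 2167 ± 47.0 CPM in Karpas-422 and 4015 ± 133 in WSU-DLCL2 with A-485. It was 4585 ± 112 in untreated Karpas-422, above WSU-DLCL2 with A-485. Untreated WSU-DLCL2 was higher still, at 6945 to 9530 CPM, but in libraries of the other kind. Line and library kind cannot be told apart between the untreated groups.

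Cell cycle lists differed little in size. Of 25 DNA replication genes, 12 were higher in WSU-DLCL2 and 2 in Karpas-422 (median -0.26), 1 of them by at least 2-fold in each direction. RFC3, a clamp loader subunit on chromosome 13, was higher in Karpas-422 (1.66, SE 0.05), and GINS2, of the replicative helicase, in WSU-DLCL2 (-1.05, SE 0.05). Of 23 G2/M genes, 6 and 9 were higher in Karpas-422 and WSU-DLCL2 (median -0.10), with KIF11, the spindle motor, at -1.19 (SE 0.06). RB1, the retinoblastoma gene that restrains entry into S phase, was at 1803, 1897 and 1888 CPM in Karpas-422 and 579, 517 and 587 CPM in WSU-DLCL2 (1.66, SE 0.06). CDKN2B, a CDK inhibitor gene, was higher in Karpas-422 by 2.43 (SE 0.11), and MTAP, its neighbour on chromosome 9, lower by 1.36 on the log2 scale (SE 0.06).

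Survival genes also split. BCL2, which blocks cell death and is the target of the recurrent lymphoma translocation, was at 212, 205 and 202 CPM in Karpas-422 and 603, 569 and 571 CPM in WSU-DLCL2 (-1.57, SE 0.05). Its antagonist BCL2L11 (BIM) was higher in WSU-DLCL2 as well, at 294, 297 and 288 CPM against 886, 894 and 902 CPM (-1.68, SE 0.05). BCL2L2 was higher in Karpas-422 (1.50, SE 0.06). Of the 12 members tested, 5 were higher in Karpas-422 and 6 in WSU-DLCL2.

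Among 49 tested genes that are recurrently altered in B cell lymphoma, 22 were higher in Karpas-422 and 21 in WSU-DLCL2, with a median of 0.06, close to that of all genes. FAS, the death receptor gene, was higher in Karpas-422 by 2.55 (SE 0.10), and CD70, a costimulatory ligand gene, in WSU-DLCL2 at 108, 158 and 126 CPM against 5.52, 5.28 and 5.24 CPM. Of 15 checkpoint and costimulatory genes tested, 9 were higher in WSU-DLCL2, and ICOSLG was among them (-4.97, SE 0.21). CD52, the antigen bound by alemtuzumab, was higher in Karpas-422 at 928, 857 and 839 CPM against 64.3, 66.0 and 65.7 CPM.

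The targets of the drug were read in both lines. EP300 was at 1901, 1766 and 1772 CPM in Karpas-422 and 1129, 1336 and 1171 CPM in WSU-DLCL2 (0.51, SE 0.05, adjusted p = 1.74e-07). CREBBP was at 118, 118 and 110 CPM against 110, 105 and 104 CPM and was not called (0.04, SE 0.06, adjusted p = 0.571), and it lay below 0 with RLE factors, with DESeq2 (-0.03 each) and in 2 other fits. Of 27 acetyltransferase, deacetylase and BET reader genes, 12 were higher in Karpas-422 and 6 in WSU-DLCL2, all within a log2 fold change of -1.73 to 1.34. EZH2, the H3K27 methyltransferase, was 0.48 (SE 0.08) higher in Karpas-422. BCL11A, the zinc finger repressor targeted in the clones, was at 75.1, 76.0 and 74.6 CPM in Karpas-422 and 54.6, 55.0 and 54.0 CPM in WSU-DLCL2 (0.39, SE 0.07), with no overlap between the lines. Of BCL11A and its 13 neighbours, all 14 were tested; 9 were higher in Karpas-422 and 1, REL, in WSU-DLCL2 (-0.36, SE 0.06).

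Other lists had members far apart without a common direction. JAG1, a Notch ligand gene, was at 200.3, 192 and 191 CPM in Karpas-422 and 1.79, 2.96 and 0.893 CPM in WSU-DLCL2 (6.59, SE 0.15), while FZD3, a Wnt receptor gene, differed by -4.80 (SE 0.11). Of cytokine receptor and JAK-STAT genes, STAT5B was higher in Karpas-422 (1.97, SE 0.05) and JAK3 in WSU-DLCL2 (-3.89, SE 0.19). IRAK2, a kinase of Toll-like receptor signalling, was at 0.385, 0.337 and 0.349 CPM against 146, 165 and 142 CPM (-8.74, SE 0.15). The integrin gene ITGA4 was higher in Karpas-422 (1.68, SE 0.06) and ITGAL in WSU-DLCL2, at 32.0, 45.2 and 41.4 CPM against 3 counts. Of 23 cholesterol genes, 10 were higher in WSU-DLCL2 and 6 in Karpas-422, beside 34.3% and 38.1% of all genes tested. Of 18 endoplasmic reticulum chaperone genes, 10 and 4 were. SCD was at -1.47 (SE 0.05) and HSPA5 at -0.73 (SE 0.04). Summed levels of both lists were 2452 and 4824 CPM in Karpas-422 and 4101 and 5684 CPM in WSU-DLCL2 with A-485. In untreated Karpas-422 they were 6518 and 8161 CPM, above WSU-DLCL2 with A-485. Untreated WSU-DLCL2, of the other library kind, had 5048 to 6820 and 2750 to 7335 CPM.

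Genes that every cell uses were uneven as well. Of 21 housekeeping genes tested, 14 were higher in WSU-DLCL2 and 4 in Karpas-422, with a median of -0.69. Their summed level went the other way, at 10292 to 10574 CPM in Karpas-422 and 5724 to 5764 CPM in WSU-DLCL2. TOP1, the topoisomerase, was at 7068, 7124 and 7038 CPM against 2303, 2113 and 2236 CPM. EEF1A1, a translation factor gene with many processed copies in the genome, was at 42.4, 37.9 and 42.5 CPM in Karpas-422 and 290, 272 and 262 CPM in WSU-DLCL2 (-2.82, SE 0.07), and PPIA and RPLP0 differed by -2.47 (SE 0.05) and -3.29 (SE 0.07). The share of reads without a unique alignment, 48.9% in Karpas-422 and 43.5% in WSU-DLCL2, moved with these genes, and its part in the difference was not tested. ACTB, picked after its values were seen, was at 16.4 to 31.9 CPM in all 6 libraries but at 9852, 9994 and 3432 CPM in untreated WSU-DLCL2 and 4.58 CPM in untreated Karpas-422, so a low CPM in these libraries does not show that a gene is little expressed. The mitochondrially encoded genes had no count in any library.

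Markers of other cells were few. Of 16 myeloid markers 2 were tested, SPI1 and CD33, both higher in Karpas-422, and 10 had no count there. Their summed level was 43.9 to 49.3 CPM in Karpas-422 and 16.5 to 21.9 CPM in WSU-DLCL2. Of 16 epithelial, fibroblast and endothelial markers, DCN, a matrix proteoglycan gene, was at 177, 189 and 193 CPM in Karpas-422 and 1.35, 2.26 and 1.19 CPM in WSU-DLCL2, and 12 had no count in Karpas-422. FN1, the fibronectin gene, was the other member tested and was higher in WSU-DLCL2, at 13.2, 15.2 and 14.4 CPM against 8.98, 7.64 and 9.31 CPM. The erythroid and platelet markers summed to at most 0.787 CPM. Of 11 neural markers matched, TUBB3 and SYP were tested and higher in Karpas-422.

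Differences were uneven along the genome. On chromosome 14, 65.6% of 424 tested genes were higher in Karpas-422 and 15.1% in WSU-DLCL2, with a median log2 fold change of 0.67. On chromosome 8 the order was turned round: 21.3% of 437 genes were higher in Karpas-422 and 55.6% in WSU-DLCL2, with a median of -0.55. Chromosome 19 had 48.5% and 20.8% (median 0.40), and the other autosomes had medians between -0.20 and 0.22. Over the alternative settings and with each library left out in turn, the median of chromosome 14 ranged from 0.58 to 0.75 and that of chromosome 8 from -0.71 to -0.38. RRM2B, LYN, PAG1 and FZD3, all higher in WSU-DLCL2, lie on chromosome 8, and PSME1, PSME2 and IRF9, higher in Karpas-422, on chromosome 14. Other named genes went against their chromosome: DUSP4 on chromosome 8 was higher in Karpas-422, and TRDC on chromosome 14 was higher in WSU-DLCL2.

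**Figure D4:**
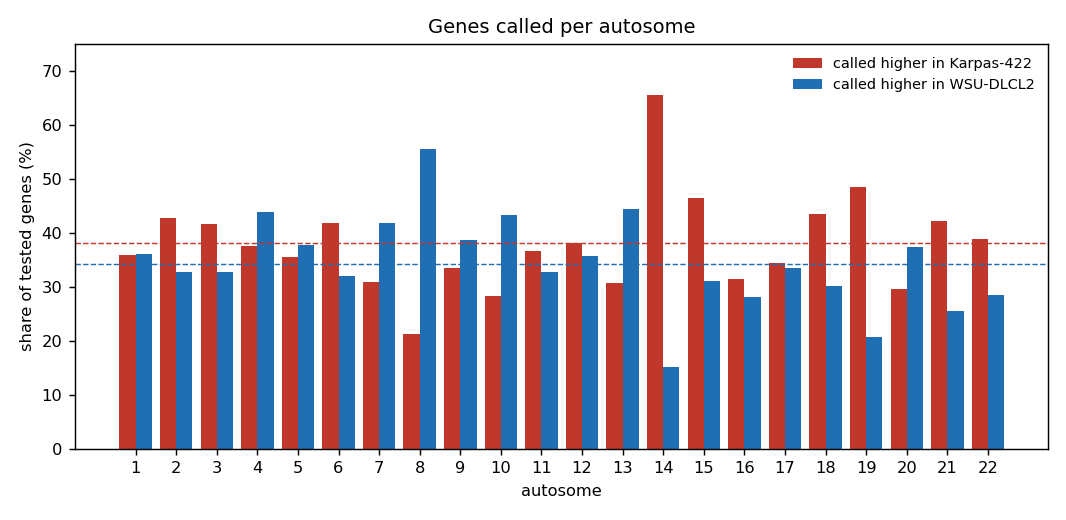
Share of the tested genes of each autosome that edgeR called higher in Karpas-422 (red bars) and in WSU-DLCL2 (blue bars), with dashed lines at the shares over all autosomes. Chromosome 14 stands out with 65.6% of genes higher in Karpas-422 and chromosome 8 with 55.6% higher in WSU-DLCL2.

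Neighbouring genes often differed together. Runs of at least 6 consecutive tested genes, in GENCODE order, with all libraries of 1 line above the other and 1 direction throughout, numbered 183, of which 135 were higher in Karpas-422 and 48 in WSU-DLCL2, where 42.6% and 32.6% of single genes met the condition. That condition used CPM without the scaling factor, whereas the scaled edgeR calls were 38.1% and 34.3% of genes. Whether the split of runs between the lines depends on the scaling was not tested. The longest run held 35 genes of chromosome 19 from ZNF615 to ZNF818P, mostly zinc finger genes, with a median of 1.64. A run of 25 genes on chromosome 14 from AP1G2 to DHRS1 held PSME1, PSME2 and IRF9 (median 1.50). Runs held sets named above: STAMBPL1 to IFIT5 on chromosome 10, with FAS and IFIT2 (median 4.92), HLA-DRB5 to TAP1 on chromosome 6 (1.85), and RB1CC1 to LYN on chromosome 8 (-1.34). Overlapping and antisense genes can share reads where strand is unknown, so members of a run are not independent.

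On chromosome 13, 2 runs of opposite direction lay almost side by side. The 14 genes from CCDC122 to ESD, the actin-bundling gene LCP1 among them, were all higher in WSU-DLCL2 with a median of -1.58. The second run held 15 genes, RB1 among them, and ended at KPNA3; all were called higher in Karpas-422, with a median of 1.71. MED4 and ITM2B, which precede RB1, differed by 0.73 (SE 0.06) and 1.74 (SE 0.06), and RCBTB2, which follows it, by 1.82 (SE 0.08). Gene copy number was not measured.

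**Figure D5:**
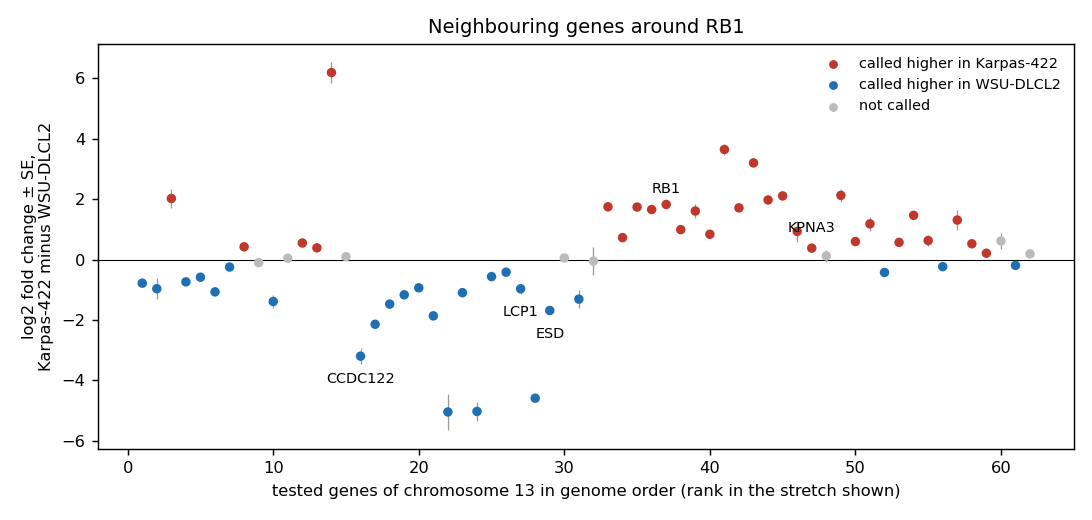
Log2 fold change ± SE (Karpas-422 minus WSU-DLCL2, 3 libraries each) of consecutive tested genes of chromosome 13, with colours for the edgeR calls. The SE was worked back from the F statistic of the test, and its bars are too short for genes with few counts. The points pass from below 0, for CCDC122 to ESD, to above 0, for the run that holds RB1 and ends at KPNA3.

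By kind of gene, protein-coding genes were balanced under the scaling used, with 3518 of 9652 higher in Karpas-422 and 3498 in WSU-DLCL2 (median 0.02). Antisense genes were higher in Karpas-422 more often, 403 of 797 against 166 (median 0.57), as were lincRNA genes, 273 of 558 against 157 (median 0.50). The share of reads outside genes was 8.69% ± 0.375 in Karpas-422 and 11.3% ± 0.529 in WSU-DLCL2, and strand is not stated. The part of either in these differences was not tested.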

How the data were processed

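The authors deposited a table of raw counts per gene for each library, as whole numbers with no normalization, by 63677 Ensembl identifiers. The submitters' processing notes name the build GRCh37 (hg19), RSEM and STAR 2.5.3a. Annotation, counting program, kit and strand: not given in the sources used here. Summary lines (60.9% to 70.2% of reads in these 6 libraries) stayed out of library sizes and tests. Symbols, gene types and order came from a gene name table, RefSeq and GENCODE 29 (52526 genes matched); these are on GRCh38, so only RefSeq promoters carry coordinates.

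The 6 libraries were fitted in edgeR 4.0.16 (R 4.3.3) with TMM scaling, filterByExpr, robust quasi-likelihood fits, two-sided tests and Benjamini-Hochberg adjustment over all 12472 genes kept, with a threshold of 0.05. CPM are relative to the counts in genes, without the scaling factor. The fitting code was tried on simulated counts in which few genes differed. That trial cannot show how the test behaves where most genes differ, as they did here. Between replicates, chi-square divided by the number of genes was lowest, at 1.18, for Karpas-422 replicates 2 and 3, and no pair was counted as 1 sample. Counts are of reads, so floors and ratios cover counting error only. The SE of a log2 fold change was worked back from the F statistic and is not a separate estimate of error. It is too small where a line had few counts. IRF4, with 3 counts in Karpas-422, had an SE of 0.24. Counting error alone left the ratio between the lines for IRF4 anywhere from 148 to 2101 (95% interval).

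The 37 gene lists (902 of 907 members matched) and the comparison itself were chosen with earlier results of these data known. Named genes are the 10 largest called differences in each direction, the 6 highest near-silent genes per line, 9 set genes, up to 5 members of each list by p and all members of short lists; other genes named were picked after their values were seen. Alternatives were library sizes alone, RLE factors, DESeq2 1.42.0, limma-voom (limma 3.58.1), other filters, the replicate number as a term, and leaving out each library. The labels list 17 samples, of which 3 sequencing runs of 1 untreated WSU-DLCL2 replicate share a file; that replicate's title and treatment label disagree, and it was grouped by title. A few genes that the rule would name are not reported here.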

Additional observations from a re-analysis of the deposited data

How the results depend on the processing

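The counts called under scalings, DESeq2, limma-voom and no filter stayed within 1.5 times those reported, and no called difference among named genes changed direction. The sign of CREBBP, not called, did in 4 settings. PAPOLG and STAG3, not called either, also changed sign in some settings. A stricter filter (mean of at least 10 CPM), which tests fewer genes, called 2572 genes higher in Karpas-422 and 2710 higher in WSU-DLCL2, and 984 and 1023 at least 2-fold. A fold of 4 left 1070 and 951. Genes near silent in Karpas-422 numbered 173 at 5 CPM, and with 0 counts required 63 were near silent in WSU-DLCL2 and 65 in Karpas-422. Runs of at least 8 genes numbered 86. With each library left out in turn, 4522 to 4784 genes were higher in Karpas-422 and 4117 to 4574 in WSU-DLCL2, 2506 to 2690 and 2173 to 2321 at least 2-fold, 98 to 113 and 113 to 131 were near silent, and runs numbered 194 to 227. Among named genes, calls were gained 13 times and lost 7 times, for CIITA, IGLC3, IGHG1, HLA-DMA and HLA-DPA1 only, out of 2842 refits; the cause was not tested. Calls made under each setting were never opposite to those reported. Library sizes alone moved the median of all genes by 0.0747, RLE factors by -0.0664 and DESeq2 by -0.0674. The share of calls that were higher in Karpas-422 was 52.6% as reported and 56.4%, 49.6% and 48.6% under these settings. Which line had more calls thus depended on the scaling. Deviations of same-numbered libraries correlated at -0.18, -0.10 and -0.0033, and the fit with the replicate block called 8666 genes. With 3 libraries per line the deviations are tied to each other. These correlations therefore cannot settle whether replicate numbers pair the lines. Leaving out the untreated WSU-DLCL2 library whose labels disagree was chosen after seeing the data.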
